A study of Mus musculus with 8 samples.

Results

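The interferon regulatory factors (IRFs) are a family of transcription factors, and 8 of their genes, Irf1, Irf2, Irf3, Irf4, Irf5, Irf7, Irf8 and Irf9, were chosen by symbol from the 54532 genes of the table. Each symbol matched 1 row, and all 8 were among the 13981 genes that passed the low-count filter. The libraries were made from CD4+ T cells of the spleen of wild-type (WT) mice, the helper class of T cell. The vehicle group held 4 libraries, and the dimethyl succinate group held 4 libraries from cells given that ester of succinate. Treatment lasted 3 days in both groups, and the authors' comparison labels the vehicle DMSO (dimethyl sulfoxide). By its title the study concerns CD4+ T cells, the chemokine CCL1 and fibrosis of the kidney. The labels give no age, sex, dose or culture stimulus for either group, and they do not say whether the libraries of a group came from separate animals, so p-values measure the spread between these samples only, which may be technical.

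IRF proteins bind DNA through a shared amino-terminal domain with conserved tryptophans and recognise the interferon-stimulated response element (ISRE). IRF1 and IRF9 act downstream of interferon receptors, IRF3 and IRF7 are switched on by kinases of the nucleic acid sensing pathways, and IRF4 and IRF8 pair with partners such as AP-1 and ETS factors. In CD4+ T cells IRF4 is induced by T cell receptor signals and works with BATF and JUN proteins, while IRF1 is known as a T helper 1 factor.

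The stretches upstream of Irf1 and Irf8 are shown because these were the members with the smallest p when vehicle replicate 4 was left out, with differences of opposite sign. Each is the 250 bases before the RefSeq start site in GRCm38.p6, written 5′ to 3′ on the gene's own strand. Capitals mark matches to the gamma-activated site (GAS) motif TTCNNNGAA, an element of genes that respond to interferon gamma. The Irf1 stretch is chr11:53769764-53770013 on the plus strand, and the Irf8 stretch is chr8:120736108-120736357 on the plus strand.
Irf1: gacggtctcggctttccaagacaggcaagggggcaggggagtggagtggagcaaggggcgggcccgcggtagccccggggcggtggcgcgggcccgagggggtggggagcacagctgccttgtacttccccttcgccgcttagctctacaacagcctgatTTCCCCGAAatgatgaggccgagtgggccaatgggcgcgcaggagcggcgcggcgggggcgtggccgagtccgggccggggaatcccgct
Irf8: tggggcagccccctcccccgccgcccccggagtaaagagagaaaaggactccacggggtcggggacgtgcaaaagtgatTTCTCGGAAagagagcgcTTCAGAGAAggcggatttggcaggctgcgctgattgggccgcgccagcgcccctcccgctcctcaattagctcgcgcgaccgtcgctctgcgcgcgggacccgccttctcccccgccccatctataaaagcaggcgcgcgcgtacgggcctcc

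The GAS motif, which reads the same on both strands, lay 82 to 90 bases upstream of the Irf1 start. It occurred at 163 to 171 and 145 to 153 bases upstream of the Irf8 start. Irf2 held it as well, with TTCCGAGAA at 216 to 224 bases upstream. Among the 32851 RefSeq promoter windows of this length, 7.02% held the motif. The ISRE, spelled here as GAAA, any 2 bases and GAAA and searched on both strands, was found upstream of Irf2 alone of the 8 members, at 232 to 241 bases, and in 2.98% of all windows. That match overlaps 1 to the IRF and ETS composite element, GGAA, any 2 bases and GAAA, at 238 to 247 bases upstream, an element found in 2.30% of all windows. Neither the AP-1 motif TGANTCA, present in 6.75% of windows, nor the AP-1 and IRF composite, TGANTCA followed after 4 bases by GAAA, present in 0.0974%, was found in the window of any member. The window used for Irf9 began from a RefSeq start 414 bases from the start listed in the table.

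Total counts ran from 13407295 to 16688854 per library. Vehicle replicate 4 stood apart, with 0.252% of its counts mitochondrially encoded against 1.16% to 1.48% in the others. It was the lowest or highest of the 8 libraries for 6 of the 8 members, all but Irf1 and Irf8, and for 58.3% of all genes tested. Markers of CD4+ T cells were all 10 detected, and their summed level was 2538 CPM (counts scaled to library size) in that library against 3117 to 3268 in the other 7. Each member is given with and without that library, and linked genes where leaving it out moved them most.

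Ordered by level per length, the 8 members spanned a 101-fold range of means and kept the same order in all 8 libraries. Irf4 was highest, with FPKM (fragments scaled to transcript length and library depth, the authors' deposited values) of 347 ± 14.03 in the vehicle and 344 ± 7.90 in the dimethyl succinate libraries (SD, n = 4). Its mean over the 8 libraries was higher than in 99.3% of tested genes by rank, whose median level was 6.06 FPKM. Irf1 followed at 134 ± 4.44 and 115 ± 8.64 FPKM, and Irf8 at 39.6 ± 2.19 and 42.8 ± 2.35. The Irf4 mean was 2.78 times that of Irf1 and 8.40 times that of Irf8.

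The remaining members were lower. Irf3 had 26.3 ± 3.57 FPKM in the vehicle and 25.5 ± 1.84 in the dimethyl succinate libraries (SD, n = 4), Irf9 at 18.1 ± 2.95 and 18.9 ± 1.16, and Irf2 at 10.8 ± 0.541 and 11.2 ± 0.809. Irf5 stood at 6.73 ± 0.589 and 7.26 ± 0.649 FPKM and Irf7 at 3.13 ± 0.439 and 3.72 ± 0.440 (SD, n = 4), which placed them 53.1% and 38.2% of the way up the ranking of tested genes. No neighbours in this order overlapped over the 8 libraries. By ratio the closest were Irf9, whose lowest library stood at 13.8 FPKM, and Irf2, whose highest stood at 12.1.

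**Figure D1:**
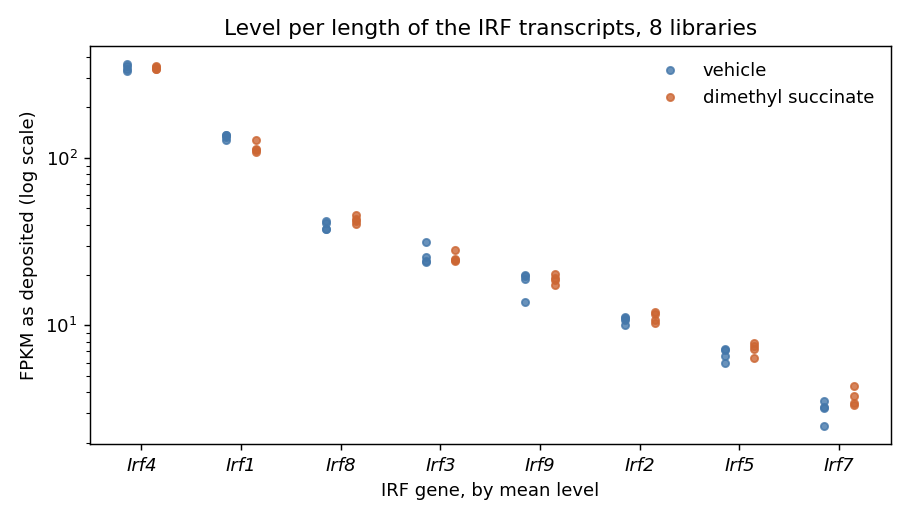
Deposited FPKM of the 8 IRF genes (log scale) in each vehicle and dimethyl succinate library, 1 point per library, ordered by mean level. Irf4 lies highest at 331 to 363 FPKM and Irf7 lowest at 2.51 to 4.32, and the ranges of neighbouring genes do not overlap.

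The level of no IRF transcript differed between the groups past the threshold. Of the 8 members 0 had an adjusted p below 0.05 in edgeR's quasi-likelihood test, where 0% of all 13981 genes did, and the lowest adjusted p among the members was 0.802. At an unadjusted p below 0.05 there was 1 member, Irf1, against 5.76% of all genes, and 5 members had a log2 fold change above 0 against 49.6%. The 2 groups overlapped for all 8 members, where they were apart for 4.82% of genes, 2.5% with dimethyl succinate higher and 2.32% with it lower. DESeq2 and limma-voom also called 0 members, and each had Irf1 as the 1 member below an unadjusted p of 0.05. Without vehicle replicate 4 no member was called either, where 0.197% of genes were, and 2 members, Irf1 and Irf8, lay below an unadjusted p of 0.05 against 8.54% of genes. In that fit 5 members lay above 0, against 50% of genes, and the groups again overlapped for all 8, where 9.61% of genes were apart.

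**Figure D2:**
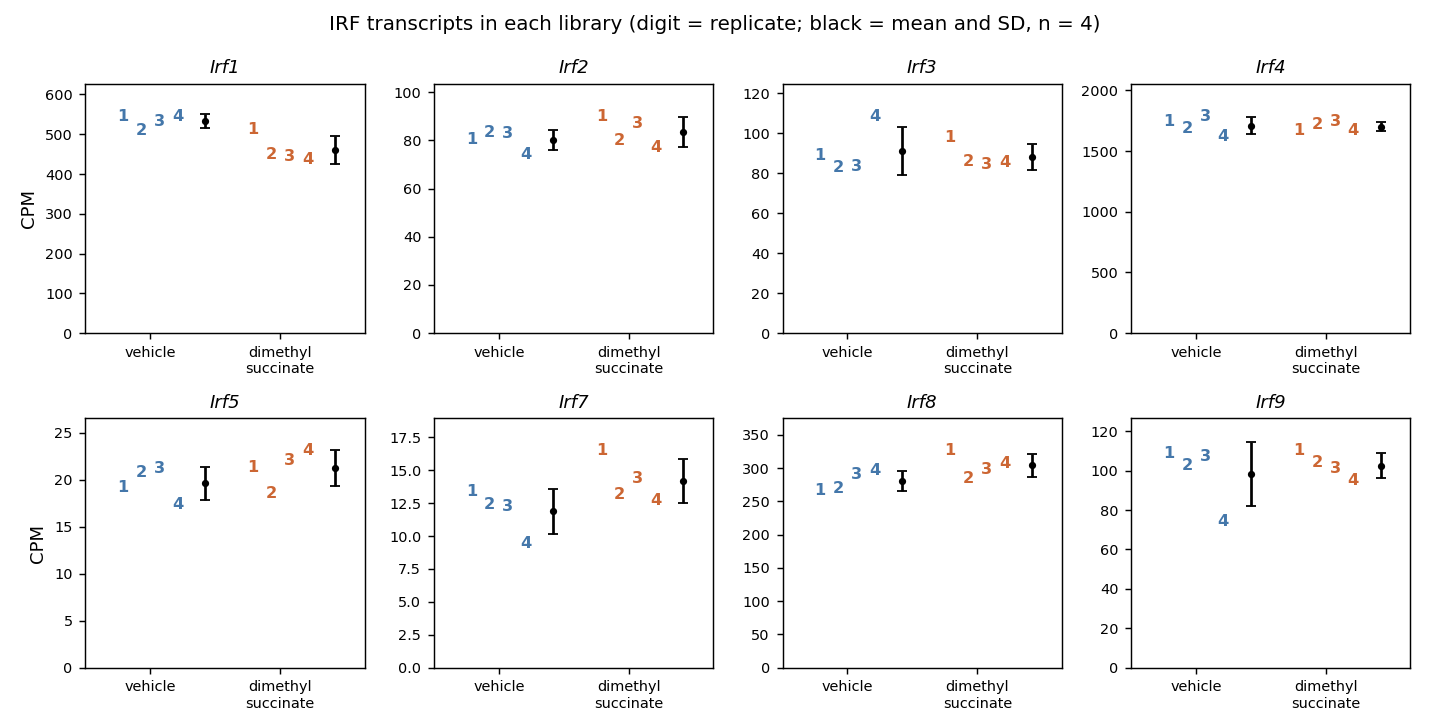
CPM of each IRF gene (linear axes from 0) by group, with each library drawn as its replicate number and the group mean and SD in black (n = 4). The Irf1 panel shows dimethyl succinate replicates 2 to 4 at 436 to 450.3 CPM, below every vehicle library, and replicate 1 at 512; the Irf3 and Irf9 panels show vehicle replicate 4 away from its group.

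Irf1, an activator of interferon response genes that is itself induced by interferons, had the lowest p of the family. Its level under vehicle was 545 CPM in replicate 1, 509.7 in replicate 2, 532 in replicate 3 and 545 in replicate 4. Under dimethyl succinate it was 512, 450.3, 445 and 436 CPM in replicates 1 to 4. Only dimethyl succinate replicate 1 reached into the vehicle range, and the other 3 libraries lay below all 4 vehicle libraries. Group levels were 533 ± 16.9 and 461 ± 34.8 CPM (SD, n = 4). On the log2 scale the difference was -0.21 ± 0.068 (SE), and its 95% interval ran from -0.36 to -0.064. In linear terms this was a change of -13.5%, with an interval of -21.9% to -4.33%. By edgeR's quasi-likelihood test p was 0.00842, adjusted to 0.802, and 131 of the 13981 genes had a smaller p, 0.937% of them. Leaving out vehicle replicate 4 gave -0.20 ± 0.052 (SE), where edgeR put p at 0.000799 and the adjusted p at 0.132. The authors' deposited table gives Irf1 a log2 fold change of -0.22, a p of 0.00206 and an adjusted p of 0.373.

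The Irf1 gene (ENSMUSG00000018899) lies on chromosome 11 from 53770014 to 53778374, plus strand (GRCm38). It shares 3.40% of its 3976 exon bases with Gm17334 on the opposite strand, and whether counting used strand was not given in the sources used here. By likeness over the 8 libraries, Plrg1, a splicing factor gene, Coq6, a coenzyme Q synthesis gene, and Naxd, a metabolite repair gene, came nearest to Irf1. The measure was the root mean square difference in log2 CPM deviation, and it was 0.053, 0.056 and 0.063 for these, against an SD of 0.14 for Irf1 itself, over 8914 genes of at least 10 CPM. Plrg1 was picked for this likeness, so its layout, the same as that of Irf1, is no separate result. Its dimethyl succinate replicate 1 stood at 84.9 CPM, within the vehicle range of 83.3 to 95.4, and the other 3 at 74.4 to 77.6.

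Irf2, known as an antagonist of IRF1 at shared elements, did not share this layout. It stood at 80.5, 83.1, 82.7 and 73.9 CPM in vehicle replicates 1 to 4 and at 90.0, 79.9, 86.9 and 76.9 in dimethyl succinate replicates 1 to 4. The lowest library of each group was its replicate 4, and the groups overlapped. Irf2 differed by 0.060 ± 0.071 (SE) on the log2 scale, its 95% interval running from -0.093 to 0.21, and by 0.024 when vehicle replicate 4 was left out. The gene (ENSMUSG00000031627) lies on chromosome 8 from 46739732 to 46847458, plus strand (GRCm38).

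Irf4, the T cell receptor induced partner of BATF, was the most abundant member and the least variable. Vehicle libraries held 1746, 1682, 1788 and 1624 CPM in replicates 1 to 4, and dimethyl succinate libraries 1668, 1719, 1746 and 1673. All 4 dimethyl succinate libraries lay inside the vehicle range. Counts were 23350 to 28804 per library, and the SD within groups was 0.048 on the log2 scale, the lowest of the 8 members. Its log2 fold change was -0.0074 ± 0.065 (SE), or -0.031 ± 0.044 with vehicle replicate 4 left out, and the 8-library 95% interval of -0.15 to 0.13 corresponds to changes from -9.71% to 9.63%. The sign is not set by these data, since it was positive under library totals alone and with any of 4 single libraries left out. Irf4 (ENSMUSG00000021356) lies on chromosome 13 from 30749226 to 30766976, plus strand (GRCm38), and its nearest genes by the same measure were Slc38a1, an amino acid transporter gene, Slc19a2, a thiamine transporter gene, and Stt3a, an oligosaccharyltransferase gene, at 0.017, 0.020 and 0.022.

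Irf8, a close relative of IRF4 best known from myeloid and B cells, was higher in most dimethyl succinate libraries without passing the test. It stood at 267, 269, 289.7 and 296 CPM in vehicle replicates 1 to 4 and at 326, 285, 298 and 307 in dimethyl succinate replicates 1 to 4. Dimethyl succinate replicate 2 fell between the lower and the upper pair of vehicle libraries, and the other 3 lay above all vehicle libraries. On the log2 scale Irf8 differed by 0.12 ± 0.064 (SE), its 95% interval running from -0.021 to 0.26, and by edgeR p was 0.0904 and the adjusted p 0.802. Leaving out vehicle replicate 4 gave 0.14 ± 0.051 (SE), and edgeR's p was then 0.00860, adjusted to 0.353. The gene (ENSMUSG00000041515) lies on chromosome 8 from 120736358 to 120756694, plus strand (GRCm38), and shares no exon base with another annotated gene. Its nearest gene by likeness was Tnfrsf1b, which encodes a TNF receptor of activated T cells, at 115 to 121 CPM under vehicle and 123 to 139 under dimethyl succinate, with a distance of 0.032. Tob2 and Ap2s1, an antiproliferative gene and a clathrin adaptor gene, followed at 0.036 and 0.038. Tnfrsf1b, like these, was picked for this likeness, so its higher levels under dimethyl succinate are no separate result.

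Cells other than CD4+ T cells express IRF genes strongly, IRF8 and IRF5 in particular, so their markers are given here. All 12 B cell markers had counts but only 3, Ighm, Cd79b and Cd22, averaged 1 CPM or more, while Ms4a1 lay below that. The summed B cell level was 88.5 to 99.2 CPM in vehicle replicates 1 to 3, 56.8 in replicate 4 and 91.5 to 97.9 under dimethyl succinate, with an exact two-sided permutation p of 0.257. Ighm made up most of it, at 50.5 to 92.0 CPM under vehicle and 83.7 to 90.9 under dimethyl succinate. Siglech, which defines plasmacytoid dendritic cells, and Cd209a, of conventional dendritic cells, had no count in any library. A count of 0 allows up to 0.180 to 0.224 CPM per library, from 3 counts and for counting error only. The summed levels of the 9 plasmacytoid and 9 conventional dendritic cell markers were 169 to 172 and 61.1 to 73.7 CPM under vehicle, and 169.8 to 187 and 67.4 to 76.4 under dimethyl succinate. Most of the first sum was Bst2 and Runx2, and most of the second was Cst3, genes that T cells also express. Runx2 stood at 34.9 to 46.2 CPM under vehicle and 50.8 to 56.7 under dimethyl succinate, with an unadjusted p of 0.00192 and an adjusted p of 0.709 by edgeR. Spib, also an IRF partner, belongs to the plasmacytoid list as well. The 12 monocyte and macrophage markers summed to 11.9 to 16.97 and 15.0 to 18.0 CPM. Exact two-sided permutation p-values for the plasmacytoid, conventional dendritic and monocyte sums were 0.114, 0.171 and 0.657. The 9 NK cell markers summed to 25.1 to 30.6 CPM under vehicle and 22.4 to 27.7 under dimethyl succinate, with the smallest exact permutation p of the 7 marker lists, 0.0571, and 2 of 8 tested genes above 0. The 2 CD8 T cell markers summed to 5.50 to 5.98 and 5.85 to 7.54 CPM, with an exact permutation p of 0.0857, and the CD4+ T cell sum had an exact permutation p of 0.629. None of these p-values is adjusted for the 7 lists, and the smallest p that 4 against 4 libraries allow is 0.0286. In bulk samples fewer cells of a type and less RNA per cell cannot be told apart, and the part of these cells in the Irf5, Irf7 and Irf8 values was not tested.

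Irf5 and Irf7, which act downstream of Toll-like receptors, were the lowest members. Irf5 stood at 19.2, 20.8, 21.2 and 17.3 CPM in vehicle replicates 1 to 4 and at 21.3, 18.6, 22.0 and 23.1 under dimethyl succinate. The groups overlapped, and the difference was 0.11 ± 0.10 (SE) on the log2 scale, between -0.10 and 0.33 at 95%. Leaving out vehicle replicate 4, the lowest library, gave 0.058 ± 0.093 (SE). The gene (ENSMUSG00000029771, chromosome 6 from 29526625 to 29541871, plus strand, GRCm38) shares 14.1% of its exon bases with Tnpo3 on the opposite strand, the largest share among the members.

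Irf7, the amplifier of type I interferon responses, rested on 136 to 241 counts per library. It stood at 13.4, 12.4, 12.3 and 9.46 CPM in vehicle replicates 1 to 4 and at 16.5, 13.1, 14.4 and 12.7 under dimethyl succinate. Vehicle replicate 4 was the lowest of all, and vehicle replicate 1 lay above 2 dimethyl succinate libraries. Its log2 difference was 0.25 ± 0.13 (SE), with 95% bounds at -0.027 and 0.53 and, by edgeR, a p of 0.0728 and an adjusted p of 0.802. That difference was 0.16 ± 0.11 (SE) when vehicle replicate 4 was left out. Irf7 (ENSMUSG00000025498) lies on chromosome 7 from 141262706 to 141266481, minus strand (GRCm38), with 1.19% of its exon bases shared with Phrf1.

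Irf3, the widely expressed factor that carries signals from STING and MAVS, stood at 89.1, 82.9, 83.4 and 109 CPM in vehicle replicates 1 to 4. Under dimethyl succinate it stood at 98.0, 85.9, 84.3 and 85.2 CPM. Vehicle replicate 4 was the highest library and dimethyl succinate replicate 1 the next. Irf3 differed by -0.043 ± 0.090 (SE) on the log2 scale with all libraries and by 0.053 ± 0.060 with vehicle replicate 4 left out, so that library set its sign. Irf3 (ENSMUSG00000003184, chromosome 7 from 44997648 to 45002848, plus strand, GRCm38) shares 2.56% of its exon bases with Bcl2l12 on the opposite strand.

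Irf9, the DNA-binding subunit of the ISGF3 complex, showed the reverse in that library. It stood at 109, 102, 107 and 74.2 CPM in vehicle replicates 1 to 4 and at 110.0, 104, 101 and 95.02 under dimethyl succinate. The 7 libraries other than vehicle replicate 4 lay between 95.02 and 110.0 CPM. Irf9 differed by 0.064 ± 0.11 (SE) with all libraries, and the sign turned, at -0.048 ± 0.056, when that library was left out. The SD within groups was 0.19 on the log2 scale with that library and 0.074 without it. Irf9 (ENSMUSG00000002325) lies on chromosome 14 from 55603571 to 55610030, plus strand (GRCm38), and shares 2.28% of its exon bases with Rnf31 on the same strand.

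**Figure D3:**
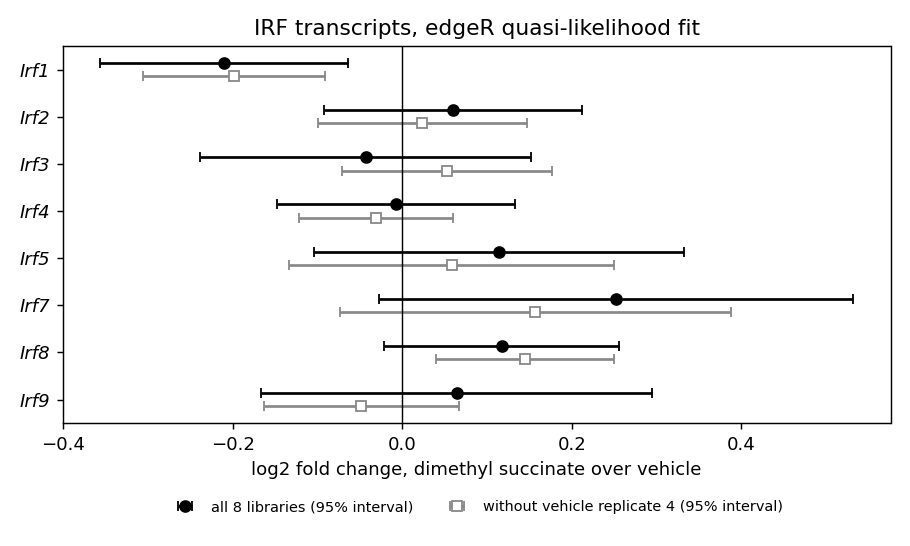
Log2 fold change of each IRF gene under dimethyl succinate over vehicle, with 95% intervals, from all 8 libraries (filled) and without vehicle replicate 4 (open). The interval of Irf1 lies below 0 in both, that of Irf8 lies above 0 only without that library, and Irf3 and Irf9 change sign between the fits.

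The genes around the IRFs in their pathways were followed in 7 lists holding 139 genes, of which 123 were tested. By edgeR none of them reached an adjusted p below 0.05, and 6 were higher and 1 was lower at an unadjusted p below 0.05, against 2.93% and 2.83% of all genes. Without vehicle replicate 4 these counts were 11 and 16, against 4.43% and 4.12%, and 1 gene, Pdcd1, passed the adjusted threshold. Of all genes, 49.6% had a log2 fold change above 0 with all libraries, and 50% without that one. The lists were chosen with earlier results of these data known.

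Ligands came first in the pathway. Of 13 interferon genes, 11, among them Ifnb1 and all interferon alpha genes listed, had no count in any library. Ifnk had 12 counts in all. Ifng, the T helper 1 cytokine, was the only one tested, and ran from 146 to 245 CPM under vehicle and from 169 to 269.5 under dimethyl succinate. Its 4 dimethyl succinate libraries overlapped the vehicle range, of which vehicle replicate 4 was the highest, and the log2 difference was 0.28 ± 0.18 (SE), or 0.45 ± 0.18 without that library. By edgeR its p was 0.147 with all libraries and 0.0474 without that one, adjusted to 0.802 and 0.577. Of the Ifng exon bases, 25.9% are shared with Gm49751 on the same strand.

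Of 14 tested genes for interferon receptors and their JAK and STAT relays, 6 had a log2 fold change above 0, and the median was -0.049, or -0.069 without vehicle replicate 4. None passed an unadjusted p of 0.05 over all 8 libraries, where 5.76% of all genes did. Without vehicle replicate 4, 1 gene, Ptpn2, was lower at that p, against 4.12% of all genes. Socs1, a feedback inhibitor of cytokine receptors, stood at 188 to 203 CPM in the vehicle and 178 to 186 in the dimethyl succinate libraries, without overlap, at -0.096 ± 0.055 (SE) on the log2 scale with all libraries and -0.085 ± 0.048 without that one. Stat2, a subunit of ISGF3, stood at 93.5 to 108 and 96.7 to 108 CPM. Ptpn2, Ifnar2, Tyk2 and Socs3 had the smallest p of this list, with log2 fold changes of -0.17, 0.17, 0.13 and -0.12 (-0.15, 0.13, 0.094 and -0.10 without vehicle replicate 4).

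Among 18 tested genes for the sensors, adaptors and kinases that activate IRF3 and IRF7, 11 lay above 0. Their median was 0.053, and 0.0049 once vehicle replicate 4 was left out. None passed an unadjusted p of 0.05 over all 8 libraries, where 5.76% of all genes did. Without vehicle replicate 4, Ifih1 was higher and Traf6 lower at that p, against 4.43% and 4.12% of all genes. Traf6, a ubiquitin ligase of the Toll-like receptor pathway, had the smallest p, with 273 to 284 CPM under vehicle and 248 to 266 under dimethyl succinate, no overlap, and a log2 difference of -0.12 ± 0.054 (SE) that was -0.12 ± 0.046 with vehicle replicate 4 left out. Tlr7, Ifih1 and Ikbke, 2 nucleic acid sensors and an IRF kinase, followed with 0.49, 0.21 and 0.10, and with 0.32, 0.19 and 0.078 in the fit without that library. Tlr7 was at a low level, 1.67 to 3.81 CPM under vehicle and 3.04 to 4.47 under dimethyl succinate, and its SE over all libraries was 0.24.

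Of 16 partners and cofactors of IRFs, 8 lay above 0, and the median was 0.0092. Without vehicle replicate 4 there were 10 above 0, the median was 0.034, and 3 had an unadjusted p below 0.05, against 8.54% of all genes. These were Spib and Junb on the higher side and Ikzf3 on the lower. Junb and Ikzf3, an AP-1 subunit and an Ikaros family factor named after their values were seen, were at 0.13 and -0.17 there, against 0.095 and -0.044 over all 8 libraries. Over all 8 libraries 1 gene of this list lay below an unadjusted p of 0.05, against 5.76% of all genes. This was Spib, the ETS family partner of IRF4 and IRF8 in B cells and plasmacytoid dendritic cells. It was at 0.99 ± 0.33 (SE) on the log2 scale, or 0.84 ± 0.37 without vehicle replicate 4, at a very low level of 0.417 to 0.776 CPM under vehicle and 0.795 to 1.49 under dimethyl succinate. Bcl6, the gene of a transcriptional repressor that follicular helper T cells express, was at 0.32, and the IRF2 binding proteins Irf2bp2 and Irf2bpl were at -0.15 and 0.13. Without vehicle replicate 4 these 3 were at 0.24, -0.076 and 0.12. Batf, the AP-1 partner of IRF4, stood at 102 to 127 and 114 to 131 CPM, at 0.10 ± 0.077 (SE) with all libraries and 0.045 ± 0.058 without that one.

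Target genes linked to ISGF3 and IRF7, 30 interferon-stimulated genes, had 14 members above 0 and a median of -0.013, or 10 above 0 and -0.058 without vehicle replicate 4. Oasl2, an oligoadenylate synthetase-like gene, was the 1 gene of this list below an unadjusted p of 0.05 over all 8 libraries. Of all genes, 5.76% lay below that p. Without vehicle replicate 4, 3 were higher, Oasl2, Ifit3 and Ifit3b, and 2 lower, Mx2 and Samhd1, against 4.43% and 4.12% of all genes. Of these, Ifit3, Mx2 and Samhd1 are named after their values were seen. Oasl2 stood at 8.05, 9.17, 7.63 and 7.72 CPM in vehicle replicates 1 to 4 and at 11.6, 14.7, 12.2 and 10.03 under dimethyl succinate. All 4 dimethyl succinate libraries were above all vehicle libraries, a log2 difference of 0.58 ± 0.13 (SE) with a p of 0.000895 and an adjusted p of 0.646 by edgeR, and it was 0.55 ± 0.13 without vehicle replicate 4. Parp14, an ADP-ribosyltransferase gene, was the other gene of the list with all dimethyl succinate libraries higher, as 2.5% of all genes were. It stood at 192.8 to 205 CPM under vehicle and 206 to 226 under dimethyl succinate, 0.11 on the log2 scale. Rsad2, an antiviral enzyme gene, was at -0.51, or -0.37 without vehicle replicate 4, and Ifit3b at 0.72, or 0.83. Both were at low levels, 2.40 ± 0.466 CPM for Rsad2 and 1.02 ± 0.243 for Ifit3b under vehicle (SD, n = 4). Their SEs over all libraries were 0.24 and 0.36.

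Genes linked to IRF1, the antigen presentation genes and interferon-induced GTPases, lay mostly below 0. Of 25 there were 6 above 0, against 49.6% of all genes, and the median was -0.054 against -0.0011 over all genes. Over all 8 libraries 1 was lower at an unadjusted p below 0.05, Gbp6, against 2.83% of all genes. Gbp6 had 57.9 to 67.7 CPM under vehicle and 48.8 to 59.3 under dimethyl succinate and a log2 fold change of -0.21 ± 0.080 (SE). Gbp6 shares 29.0% of its exon bases with Gm43302 on the same strand, so its counts are uncertain. Without vehicle replicate 4 the median was -0.037, 8 of 25 were lower at that p and 0 were higher, against 4.12% and 4.43% of genes, and none passed an adjusted p of 0.05. The smallest of these p-values was that of Gbp4, a guanylate-binding protein gene named here on the strength of that value. It stood at 482, 432, 436 and 337 CPM in vehicle replicates 1 to 4 and at 373, 400.3, 399 and 333 under dimethyl succinate. Gbp4 differed by -0.16 ± 0.10 (SE) with all libraries, and by -0.26 ± 0.058 with vehicle replicate 4 left out, where edgeR's adjusted p was 0.0734. B2m, the light chain of class I molecules named in the same way, moved from 0.013 to -0.16 when that library was left out, and it held 1179 CPM there against 2077 to 2200 in the other vehicle libraries. Gbp7, Ifi47 and Socs1, the others with the smallest p over all 8 libraries, were at 0.19, -0.12 and -0.096, and Gbp7 and Ifi47 at 0.13 and -0.13 without vehicle replicate 4.

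Genes linked to IRF4 and BATF in activated T cells had 18 of 24 above 0 and a median of 0.10, or 14 above 0 and 0.043 without vehicle replicate 4. At an unadjusted p below 0.05 there were 4 higher, against 2.93% of genes, and none lower: Pdcd1, Nfatc1, Il10 and Il13. Nfatc1, a calcium-regulated transcription factor, stood at 266, 272, 267 and 199.9 CPM in vehicle replicates 1 to 4 and at 303, 305, 297 and 284 under dimethyl succinate, which differed by 0.24 ± 0.089 (SE) on the log2 scale, and by 0.15 ± 0.046 with vehicle replicate 4 left out. Il10, an inhibitory cytokine, was at 0.20 ± 0.088 (SE) and Il13, a T helper 2 cytokine, at 0.31 ± 0.14. Without vehicle replicate 4, the lowest for Il13, they were at 0.21 ± 0.091 and 0.17 ± 0.092, and Il13 no longer lay below an unadjusted p of 0.05. Pdcd1, the gene of the receptor PD-1, was at 0.36 ± 0.086, and edgeR's adjusted p for it went from 0.646 to 0.00831 when vehicle replicate 4 was left out. Without that library the list had 4 higher, with Hk2 in place of Il13, and 3 lower, against 4.43% and 4.12% of all genes. The lower ones were Il21, Gata3 and Icos. Hk2 and these 3, named after their values were seen, were at 0.23 and at -0.23, -0.16 and -0.11. Irf4 itself differed by less than the spread between libraries in both fits.

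**Figure D4:**
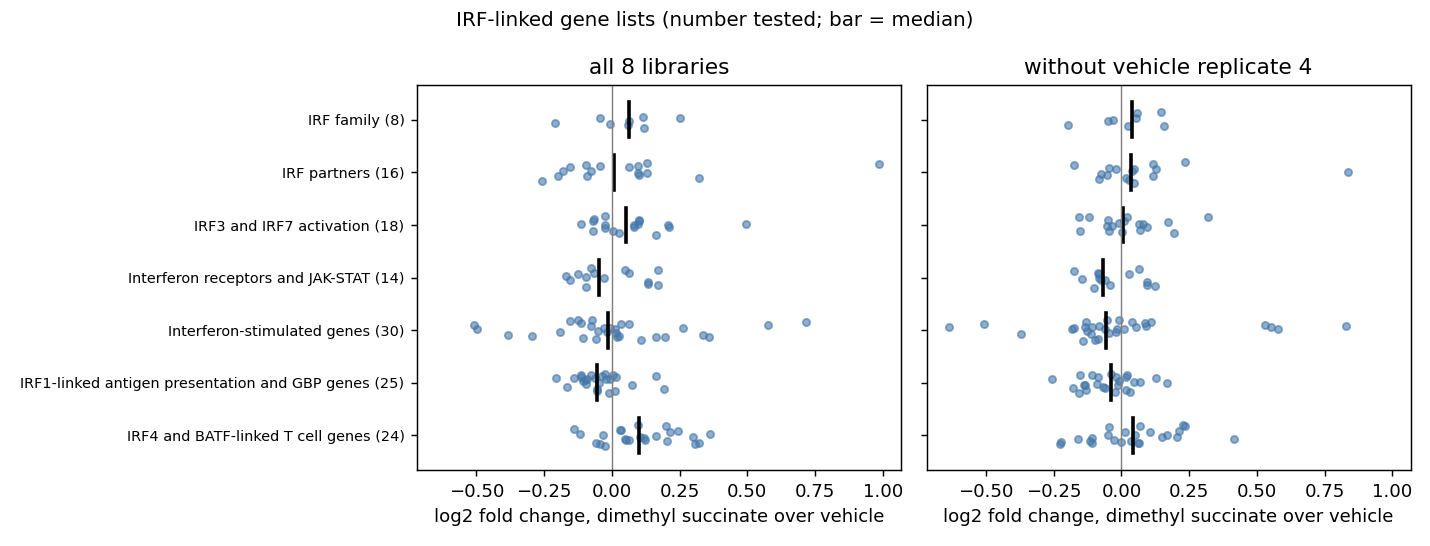
Log2 fold changes of the IRF genes and of 6 lists of linked genes, 1 point per tested gene with the median as a bar, from all 8 libraries (left) and without vehicle replicate 4 (right). The IRF1-linked genes lie mostly below 0, with a median of -0.054 on the left and -0.037 on the right, and the IRF4 and BATF-linked median moves from 0.10 to 0.043.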

How the data were processed

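The members and gene lists were chosen with earlier results of these data known. The authors deposited 1 table with raw counts per gene and library and with FPKM, per the file headers. It also held the authors' group means, taken here as a normalised signal, with log2 fold changes and p-values, per the file headers. HISAT2 2.0.5 is named in the submitters' processing notes; for the counting tool, strand setting, annotation and build the sources used here name none. Start or end of 99.2% of the 54409 genes matched by identifier equalled GENCODE M21, so coordinates are read as GRCm38.

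Counts of all genes were fitted with edgeR 4.0.16 (R 4.3.3), after filterByExpr, with TMM scaling, robust quasi-likelihood F tests (two-sided, 4 against 4 libraries, no covariate) and Benjamini-Hochberg adjustment over 13981 genes at 0.05. The filter keeps genes that are high in either group, and all 8 members passed it. CPM used TMM-scaled totals, and log2 CPM a prior count of 2. DESeq2 1.42.0 and limma 3.58.1 were alternatives. Marker sums were compared by exact permutation over 70 splits, which cannot give a p below 0.0286. The edgeR script was tested on simulated data. Replicates differed by more than counting noise (chi-square per gene of at least 2.07 for every pair). Named genes were all members, up to 4 per list by smallest p, and the 3 genes nearest to Irf1, Irf4 and Irf8. Stat2, Batf, single cell type markers (Runx2 among them) and interferon genes with few or no counts were named outside this rule. Others outside it are marked as picked after the values were seen. Promoter sequences are from RefSeq, and all 8 members matched by symbol.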

Additional observations from a re-analysis of the deposited data

Results flagged for a closer look

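In 84 groups of 4 libraries, from 42 genes named by the rule, 4 held a library whose gap to its nearest neighbour took up more than 0.829 of the group's range on the log2 scale, where chance flags about 1 in 20. Irf9 in vehicle replicate 4 stood at 74.2 CPM, against 102 to 109 in the other 3 vehicle libraries. Irf3 in dimethyl succinate replicate 1 stood at 98.0 CPM, against 84.3 to 85.9 in the other 3. Nfatc1 in vehicle replicate 4 stood at 200 CPM, against 266 to 272. Tob2 in dimethyl succinate replicate 1 stood at 186 CPM, against 168 to 169. The vehicle replicate 4 library is the one that stood apart in its mitochondrial share, and the part of that in the Irf9 and Nfatc1 values was not tested.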

How the results depend on the processing

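The members' directions were compared under 18 alternatives each, of which 8 left out a library, and none gave any member an adjusted p below 0.05. Irf1, Irf2, Irf5, Irf7 and Irf8 kept their sign in all 18, with Irf1 from -0.26 to -0.18. Its adjusted p ran from 0.0515, with library quality weights in limma-voom, to 0.936. Irf3 was 0.014 and Irf9 -0.039 with the quality weights, which gave vehicle replicate 4 a weight of 0.161 against 0.595 to 1.70 for the others, and 0.053 and -0.048 without that library. Irf4 was 0.0070 with library totals alone, and 0.0044 and 0.014 without vehicle replicates 1 and 3 in turn, and 0.0047 and 0.0024 without the first and last dimethyl succinate replicates. With single libraries left out the members that turned ran from -0.093 to 0.053 for Irf3, from -0.031 to 0.014 for Irf4 and from -0.048 to 0.12 for Irf9. Members at an unadjusted p below 0.05 numbered 2 with quality weights, with library totals and with the replicate block, and 1 to 2 with single libraries left out. Of all genes, 1334 of 13981 lay below that p with quality weights. With no filter 1595 of 27185 did, and with the replicate block 987 of 13981. Library totals gave 813 of 13981, and single libraries left out 585 to 1216, against 805 of 13981 in the main fit. With DESeq2 there were 867 of 27185, and with the stricter filter 691 of 11850. Limma-voom gave 834, DESeq2 size factors 810 and limma-trend 846, each of 13981. Genes past an adjusted p of 0.05 numbered 26 with quality weights, 6 with no low-count filter, 1 with the replicate block and 0 to 28 with single libraries left out, 28 being without vehicle replicate 4. Of the pathway genes 1 was called higher with quality weights, and 0 to 1 with single libraries left out. Pathway genes higher at an unadjusted p below 0.05 numbered 14 with quality weights, 12 with no filter and 10 with the replicate block, and 5 to 11 with single libraries left out. Those lower numbered 14 with quality weights, 3 with DESeq2, with no filter, with the replicate block and with limma-trend on log2(FPKM + 1), 2 with limma-voom, with DESeq2 size factors and with the stricter filter, and 1 to 16 with single libraries left out. The order of levels per length had all 7 neighbours apart with FPKM and with counts per kilobase. The labels do not say whether the title numbers pair the libraries. Deviations of same-numbered libraries correlated from -0.014 to 0.13, and those of differently numbered libraries from -0.118 to 0.086. With so few pairs these values cannot decide whether the libraries are paired. The cause of these shifts was not tested. Depth was lowest for Irf7, at 136 to 241 counts per library.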
